A study of Mus musculus with 12 samples.

Results

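The 9 genes described here make, carry, read and remove retinoic acid in mouse testis: the retinaldehyde dehydrogenases Aldh1a1 and Aldh1a2, the binding proteins Rbp4, Crabp1 and Crabp2, the receptors Rara and Rarg, the hydroxylase Cyp26b1 and the response gene Stra8. They were chosen by name, and every array probe whose transcript accession mapped to one of the 9 symbols was taken. That gave 10 probes, 2 of them for Rara, among 39429 probes on the array. All 9 genes passed the filter on dim probes and stood among the 25035 genes tested. The data are 12 one-colour expression arrays from 6 male C57BL/6J mice, with the Sertoli cell and the germ cell fraction of each testis on an array each. The groups were Sertoli cells of TAp73 knockout mice, Sertoli cells of control mice, germ cells of TAp73 knockout mice and germ cells of control mice, with 3 mice per group. TAp73 is the isoform class of the p53 relative Trp73 that carries the transactivation domain.

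The knockout mice were numbers 120 (4 months old), 86 and 72 (8 months old each), and the control mice were numbers 99 (5 months old), 73 and 74 (8 months old each). All 3 controls are called wild type by their source names, but the titles of mice 73 and 74 say het, and the deleted part of the gene is not given in the sources used here. Nothing in the labels says that mice were pooled or that the fractions were sorted or stained. The arrays lay on 3 slides, with mice 120 and 99 on the first, 86 and 73 on the next and 72 and 74 on the last, both fractions of a mouse on the same slide. Each level below is the log2 processed signal of a probe minus the array's 75th percentile, so 0 is that percentile, and levels of different probes cannot be set against each other. Differences are log2 differences with standard errors and adjusted p-values from limma with Benjamini-Hochberg adjustment over all 25035 genes, called at an adjusted p of 0.05.

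Retinoic acid is made from retinol in successive oxidations, the last of them by retinaldehyde dehydrogenases, and it acts in the nucleus through retinoic acid receptors paired with retinoid X receptors. In the testis it is known for driving spermatogonia to differentiate and germ cells to enter meiosis, with Stra8 as the gene by which that response is usually read. In mouse testis Aldh1a1 is best known from Sertoli cells and Aldh1a2 from germ cells, Rara from Sertoli cells and Rarg from spermatogonia, and Cyp26b1 degrades retinoic acid.

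Start regions of 4 members are shown because they belong to the response gene with the largest difference between fractions, to a receptor with a large difference the other way, and to the pair of dehydrogenases. Each runs from 250 bases before to 50 bases after an annotated gene start, on the gene's strand, from RefSeq (GRCm38.p6). The Stra8 window is chr6:34920698-34920997 (plus strand), the Rarg window chr15:102257473-102257772 (minus strand), the Aldh1a1 window chr19:20601718-20602017 (plus strand) and the Aldh1a2 window chr9:71215539-71215838 (plus strand). Capitals mark matches to the hexamer half-site of retinoic acid receptors, searched on both strands in the spelling AGGTCA, in its variant AGTTCA, in the spelling GGGTCA or in its variant GGTTCA.
Stra8: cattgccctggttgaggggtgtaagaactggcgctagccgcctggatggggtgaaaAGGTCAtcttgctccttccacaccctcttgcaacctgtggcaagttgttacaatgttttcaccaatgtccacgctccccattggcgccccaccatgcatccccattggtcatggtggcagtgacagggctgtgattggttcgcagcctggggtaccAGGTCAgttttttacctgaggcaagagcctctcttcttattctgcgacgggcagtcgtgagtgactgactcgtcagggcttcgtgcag
Rarg: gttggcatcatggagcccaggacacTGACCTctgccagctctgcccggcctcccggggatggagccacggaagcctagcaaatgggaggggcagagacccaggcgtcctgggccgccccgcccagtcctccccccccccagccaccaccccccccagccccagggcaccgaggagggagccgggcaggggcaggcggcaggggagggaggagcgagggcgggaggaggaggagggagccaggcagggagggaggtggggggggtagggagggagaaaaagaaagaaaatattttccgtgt
Aldh1a1: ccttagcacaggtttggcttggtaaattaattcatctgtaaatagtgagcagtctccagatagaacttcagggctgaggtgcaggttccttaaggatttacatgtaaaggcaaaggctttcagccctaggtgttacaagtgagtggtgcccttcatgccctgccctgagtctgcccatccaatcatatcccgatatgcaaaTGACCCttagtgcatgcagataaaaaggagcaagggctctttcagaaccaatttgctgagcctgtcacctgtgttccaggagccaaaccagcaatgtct
Aldh1a2: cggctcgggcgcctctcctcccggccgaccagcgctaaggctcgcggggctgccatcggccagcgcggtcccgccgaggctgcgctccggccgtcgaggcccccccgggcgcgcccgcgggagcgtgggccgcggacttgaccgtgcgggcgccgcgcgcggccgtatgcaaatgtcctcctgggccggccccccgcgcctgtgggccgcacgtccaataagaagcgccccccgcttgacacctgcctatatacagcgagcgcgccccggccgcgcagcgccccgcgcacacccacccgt

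The Stra8 window held 2 half-sites, both AGGTCA on the gene's strand, at -194 to -189 and at -38 to -33 relative to the gene start. Rarg and Aldh1a1 each have 2 start windows in the table, and the one with a match is shown; the others, chr15:102246451-102246750 and chr19:20492333-20492632, held none. The Rarg window shown held 1 (TGACCT, which is AGGTCA on the other strand, at -225 to -220) and the Aldh1a1 window shown 1 (TGACCC, at -49 to -44), while the Aldh1a2 window held none. A half-site of these spellings occurred in 43.7% of the 32851 start windows in the table, so a match is common and is only a description of the letters. Direct repeats of the half-site with a spacing of 1, 2 or 5 bases were found in 0.222%, 0.268% and 0.0974% of all windows and in none of the 14 windows of the 8 members with an entry. Crabp2 had no entry. The dehydrogenase starts differ in base composition: the Aldh1a2 window had 50 CG dinucleotides, 1.11 times the number its C and G content predicts, which is above 98.3% of all windows, while the Aldh1a1 window shown had 1, or 0.06 times (above 7.6% of windows), and its other window had 3, or 0.21 times (above 30.7%). The median over all windows was 0.38 times.

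The fractions were checked against marker genes. Of 15 tested Sertoli cell markers, 6 had higher and 9 lower values in the control Sertoli than in the control germ fraction. Those called were 5 higher (Vim, Gata4, Ctsl, Sox9 and Wt1) and 8 lower, among them Fshr, Rhox5, Defb45 and Amhr2. Fshr, the receptor for follicle stimulating hormone and a defining Sertoli cell gene, was not well above background on any Sertoli array. The mean level of the 15 markers lay at 0.26 to 0.51 in knockout and 0.07 to 0.42 in control Sertoli fractions, against 1.77 to 1.84 in knockout and 1.34 to 1.43 in control germ fractions. The germ mean of knockout mouse 72 (1.83) is over 14 markers, since Amhr2 had no value on that array. All 6 peritubular myoid and all 6 fibroblast markers were higher in the Sertoli fraction, by medians of 5.78 and 6.71 in control mice, and all markers of spermatocytes (10), round spermatids (8) and elongating spermatids (9) were lower. The data therefore go against the Sertoli label for most defining genes, and "Sertoli fraction" below means the samples so labelled. In such bulk samples fewer cells of a type and less RNA per cell cannot be told apart. Signal for Trp73 was present on all 6 knockout arrays, and its main probe differed by 0.42 ± 0.50 in Sertoli fractions (adjusted p = 1.0) and 1.0 ± 0.50 in germ fractions (limma adjusted p = 0.753, SE). On the other 2 of its 3 probes the arrays of control mouse 99, the only control titled WT, were not well above background, at -9.42 and -8.52 in its Sertoli fraction and -9.40 and -8.73 in its germ fraction. All knockout arrays were above background there, at -3.29 to -1.52 on the first and -5.82 to -3.50 on the second of these probes, so Trp73 read higher in the knockouts than in that control. On the second of these probes the Sertoli arrays of control mice 73 and 74 were not well above background either, at -6.67 and -5.39. Where the 3 probes lie relative to the deletion is not known here, so they do not check the genotype. The percentage of spots well above background was 64.11 to 68.36 on Sertoli arrays and 73.33 to 78.92 on germ arrays. The Sertoli array of control mouse 74 was the dimmest, with a 75th percentile of 1354.9 before log2, against 2863.5 to 3928.7 on the other Sertoli arrays. The slide of mice 72 and 74 was scanned on another day than the other slides.

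Nearly all members differed between the fractions in either genotype. In control mice 8 of the 9 genes differed between fractions: Rarg, Aldh1a1, Crabp2, Rara and Aldh1a2 were higher in the Sertoli fraction, and Stra8, Crabp1 and Rbp4 were higher in the germ fraction. In knockout mice all 9 differed, the same 8 in the same directions and Cyp26b1 lower in the Sertoli fraction. These counts stand against a background in which 76.3% of all genes tested passed the threshold between control fractions (39.8% higher and 36.5% lower in the Sertoli fraction) and 75% between knockout fractions (37.9% higher and 37.1% lower), so the share of members called is near that of genes at large. The arrays of the 2 fractions did not overlap for 9 of 9 members in control mice, against 74.9% of all genes, and for 8 of 9 in knockout mice, against 80.5%. The median difference of the members was 0.96 in knockout and 0.90 in control mice, beside 0.09 and 0.21 over all genes.

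**Figure D1:**
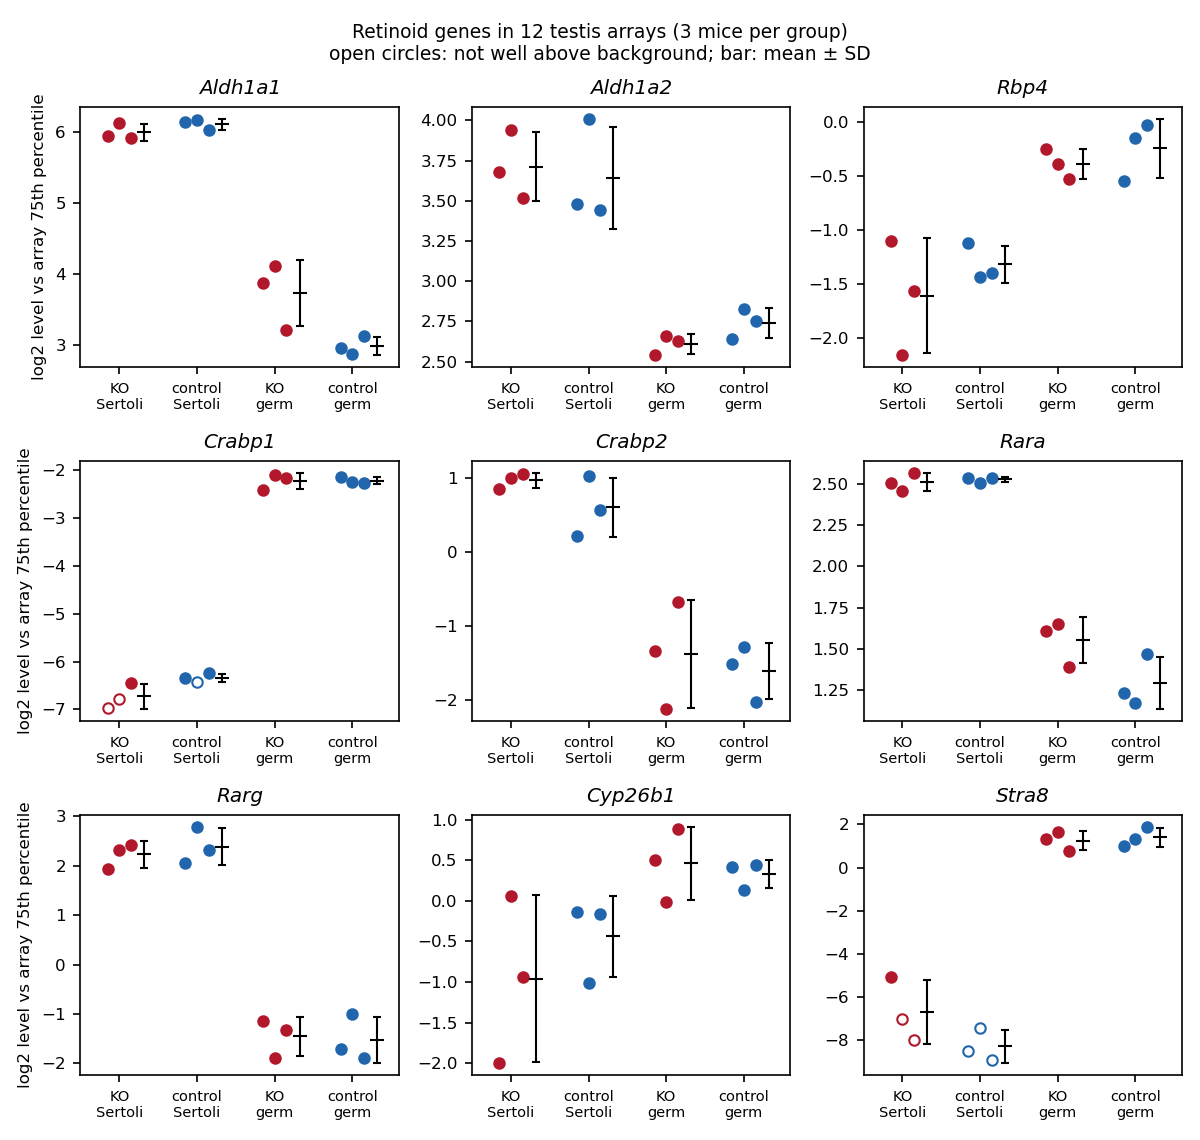
Log2 level relative to the array's 75th percentile for the 9 genes in the 4 groups, 1 panel per gene and 1 point per mouse, with the mean and SD of 3 mice as bars and open circles where the probe was not well above background. Stra8 and Crabp1 sit far lower in both Sertoli groups than in both germ groups, Aldh1a1 and Rarg far higher, and knockout and control points lie close together in most panels.

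Aldh1a1, which oxidises retinaldehyde to retinoic acid, had levels of 5.91, 6.12 and 5.94 in Sertoli fractions of knockout mice 120, 86 and 72, against 6.02, 6.14 and 6.16 in those of control mice 99, 73 and 74. In germ fractions it had 3.21, 4.11 and 3.87 in the knockout mice, against 3.12, 2.96 and 2.87 in the control mice. Every Sertoli fraction was higher than every germ fraction, and the 6 Sertoli values spanned far less than the 3 knockout germ values. The difference between fractions was 2.26 ± 0.22 in knockout mice (SE, limma adjusted p = 2.84e-06) and 3.12 ± 0.22 in control mice (adjusted p = 1.69e-07). Aldh1a2, the paralogous dehydrogenase, had 3.52, 3.94 and 3.68 in knockout and 3.44, 3.48 and 4.01 in control Sertoli fractions. Its germ fractions had 2.63, 2.66 and 2.54 in knockout and 2.75, 2.64 and 2.83 in control mice. Here too all Sertoli values lay above all germ values, by 1.10 ± 0.19 in knockout mice (adjusted p = 0.000307) and 0.90 ± 0.19 in control mice (adjusted p = 0.00130). Both dehydrogenases thus ran in the same direction, with a larger difference for Aldh1a1. The Aldh1a2 call in control mice was lost without the 2 mice titled het, where the difference was 0.69 (adjusted p = 0.0760). That leaves mouse 99 as the lone control, assumed to vary like the other groups.

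Rbp4, the plasma carrier of retinol, had -1.57, -2.16 and -1.10 in knockout and -1.40, -1.12 and -1.44 in control Sertoli fractions. Its germ fractions had -0.53, -0.39 and -0.25 in knockout mice, against -0.03, -0.55 and -0.15 in control mice. All germ values were higher, with differences (Sertoli minus germ) of -1.22 ± 0.26 in knockout mice (adjusted p = 0.00134) and -1.08 ± 0.26 in control mice (adjusted p = 0.00298). With the 8-month mice alone the control value was -0.93 (adjusted p = 0.0728). The cellular retinoic acid binding proteins Crabp1 and Crabp2, which hold retinoic acid inside the cell, ran in opposite directions. Crabp1 had -6.44, -6.79 and -6.96 in knockout Sertoli fractions, against -6.25, -6.34 and -6.42 in control Sertoli fractions. Those are levels at the edge of detection, well above background in mouse 120 alone among the knockouts and in mice 99 and 73 among the controls. In germ fractions Crabp1 had -2.17, -2.10 and -2.42 in knockout and -2.28, -2.14 and -2.26 in control mice. The difference was -4.50 ± 0.18 in knockout mice (adjusted p = 1.87e-09) and -4.11 ± 0.18 in control mice (adjusted p = 3.14e-09). With normexp background correction the control difference was -1.45 (adjusted p = 0.0782), so its size rests on how signal near the background is treated. Crabp2 had 1.05, 0.99 and 0.85 in knockout and 0.56, 0.22 and 1.02 in control Sertoli fractions, against -0.67, -2.12 and -1.34 in knockout and -2.02, -1.51 and -1.28 in control germ fractions. Its germ values were all below its Sertoli values, by 2.33 ± 0.35 in knockout mice (adjusted p = 9.28e-05) and 2.20 ± 0.35 in control mice (adjusted p = 0.000142).

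Rarg, the retinoic acid receptor gamma, had 2.43, 2.33 and 1.93 in knockout and 2.33, 2.05 and 2.79 in control Sertoli fractions. Its germ fractions had -1.32, -1.89 and -1.14 in knockout mice, against -1.89, -1.70 and -1.01 in control mice. The gap between fractions was the widest among the members higher in the Sertoli fraction, at 3.68 ± 0.30 in knockout mice (adjusted p = 5.88e-07) and 3.93 ± 0.30 in control mice (adjusted p = 3.13e-07). Rara, the receptor alpha, had 2.57, 2.46 and 2.51 in knockout and 2.54, 2.54 and 2.51 in control Sertoli fractions on its brighter probe, against 1.39, 1.65 and 1.61 in knockout and 1.47, 1.23 and 1.17 in control germ fractions. Its 6 Sertoli values were the tightest of any member, and none overlapped a germ value. The difference was 0.96 ± 0.15 in knockout mice (adjusted p = 0.000154) and 1.24 ± 0.15 in control mice (adjusted p = 1.84e-05). The second Rara probe was dimmer and gave the same directions, with larger differences of 1.54 in knockout and 2.13 in control mice.

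Cyp26b1, the enzyme that clears retinoic acid, passed between fractions in knockout mice and not in control mice. The difference between genotypes in that contrast did not pass (-0.66, 95% interval -2.10 to 0.78, limma adjusted p = 0.999). It had -0.94, 0.06 and -2.0 in knockout Sertoli fractions of mice 120, 86 and 72, against -0.16, -0.14 and -1.01 in control Sertoli fractions. Its germ fractions had 0.89, -0.01 and 0.50 in knockout mice, against 0.44, 0.42 and 0.13 in control mice. In control mice all Sertoli values lay below all germ values, but the difference of -0.76 ± 0.46 did not pass (adjusted p = 0.153, 95% interval -1.78 to 0.25). In knockout mice the difference was -1.42 ± 0.46 (adjusted p = 0.0156), although mouse 86 had nearly equal levels in its 2 fractions. Within single knockout mice the difference was -1.83 in mouse 120, 0.07 in mouse 86 and -2.50 in mouse 72. The call was lost without mouse 72 (-0.88, adjusted p = 0.115) and without mouse 120 (-1.22, adjusted p = 0.105), and the value was -2.17 without mouse 86 (adjusted p = 0.00136).

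Stra8, the gene that retinoic acid induces as germ cells approach meiosis, had the widest gap between fractions of all 9. Its Sertoli fractions had -8.01, -7.02 and -5.09 in knockout mice 120, 86 and 72, against -8.96, -8.52 and -7.45 in control mice 99, 73 and 74. Only the Sertoli fraction of knockout mouse 72 was well above background. Its germ fractions had 0.77, 1.64 and 1.31 in knockout mice, against 1.89, 1.0 and 1.32 in control mice. No control Sertoli array measured the probe above background, so the size of the control difference is uncertain (fitted difference, Sertoli minus germ, -9.71 ± 0.65, limma adjusted p = 9.82e-08). With dim values raised to the lowest signal well above background on each array, Stra8 was 589-fold higher in the germ fraction. That fold is not a strict lower bound. The raised values averaged -7.81, while Crabp1 was not well above background at -6.42 in the Sertoli fraction of control mouse 74. In knockout mice the fitted difference was -7.95 ± 0.65 (adjusted p = 5.86e-07), with 1 of 3 Sertoli arrays measured. With normexp background correction the fitted control difference was -5.03 (adjusted p = 0.000473). Of 10 spermatogonial markers, a list that includes Stra8, 9 had lower values in the Sertoli fraction in knockout mice, 6 of them called. In control mice 7 had lower values, all of them called. Over all genes 37.1% were called lower in knockout and 36.5% in control mice.

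**Figure D2:**
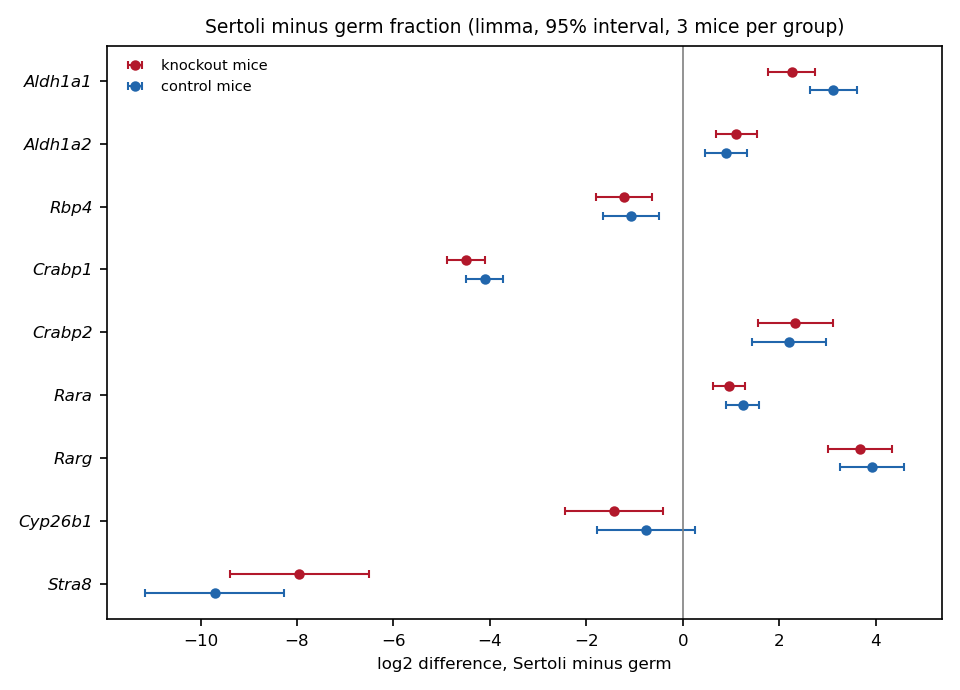
Log2 difference of the Sertoli minus the germ fraction for each of the 9 genes, with 95% intervals from limma, for knockout mice and control mice (3 mice per group). Stra8, Crabp1 and Rbp4 lie left of 0 in both genotypes and Rarg, Aldh1a1, Crabp2, Rara and Aldh1a2 right of it, while the control interval of Cyp26b1 spans 0.

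No member passed the threshold between knockout and control germ fractions. There 0 of 9 genes were called in limma, beside 0.220% of all genes tested, and 1 of 9 had an unadjusted p under 0.05, beside 7.35%. The members' differences (knockout minus control) had a median of 0.08, with 5 above and 4 below 0, beside a median of -0.04 over all genes. Aldh1a1 had the largest difference. Its germ mean was 3.73 ± 0.47 in knockout and 2.98 ± 0.13 in control mice (SD, n = 3 each), a difference of 0.75 ± 0.22 (95% interval 0.26 to 1.24, unadjusted p = 0.00663, limma adjusted p = 0.307). It was the only member whose knockout and control germ values did not overlap, which 15.7% of all genes did not either. Within slides the difference was 0.09 between mice 120 and 99, 1.15 between mice 86 and 73 and 1.01 between mice 72 and 74. Knockout mouse 120 thus lay just above the controls, and mice 86 and 72 well above them. The first pair was also the one of younger mice and held the only control titled WT, and leaving out any 1 mouse gave 0.56 to 1.01.

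Markers of some other cells also had higher values in knockout than in control germ fractions. The mean level of 6 Leydig cell markers was -0.42, 0.46 and 0.39 in germ fractions of knockout mice 120, 86 and 72, against -1.40, -1.85 and -0.51 in those of control mice 99, 73 and 74. All 6 markers had higher values in knockout germ fractions, with a median difference of 1.35 and none called (Cyp11a1, which starts steroid synthesis, at 2.02 with limma adjusted p = 0.0506). Of 8 macrophage and leukocyte markers, 7 were higher in value, with a median difference of 1.0, and all 6 Leydig markers were detected in every germ fraction. Most fibroblast and peritubular myoid markers, which were higher in the Sertoli fraction, had higher values too. These were 5 of 6 fibroblast markers (median 0.81) and 5 of 6 peritubular myoid markers (median 0.63, none called). The growth factor receptor Pdgfra, the 1 fibroblast marker called, rose by 1.25 (limma adjusted p = 0.0360). Of 15 Sertoli cell markers 14 had higher values (median 0.51, none called), but 9 of the 15 had lower values in the control Sertoli than in the control germ fraction. Mouse 120 was the lowest knockout in both Aldh1a1 and the Leydig mean. The controls did not share an order: mouse 74 had the lowest Aldh1a1 of them (2.87) and the highest Leydig mean (-0.51). Germ cell markers more often had lower values in knockout germ fractions. These were 6 of 10 spermatogonial, 8 of 10 spermatocyte, 7 of 8 round spermatid and 8 of 9 elongating spermatid markers, none called. Their medians were -0.07, -0.07, -0.28 and -0.22, beside -0.04 over all genes. The part of any of these cells in the Aldh1a1 values was not tested.

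**Figure D3:**
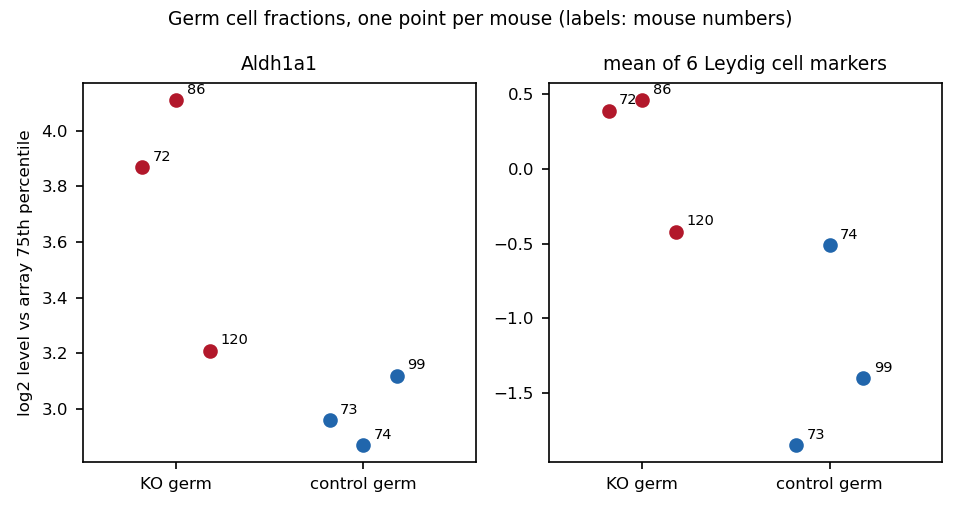
Log2 level relative to the array's 75th percentile in the germ fractions, 1 point per mouse with its number, for Aldh1a1 (left) and for the mean of 6 Leydig cell markers (right). In both panels the 3 knockout mice lie above the 3 control mice, with mouse 120 lowest among the knockouts. The control mice are ordered differently in the panels, with mouse 74 lowest of them on the left and highest on the right.

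The other 8 members had smaller differences between genotypes in germ fractions, with intervals that span 0. Stra8 averaged 1.24 ± 0.44 in knockout and 1.40 ± 0.45 in control germ fractions (SD, n = 3 each), a difference of -0.16 ± 0.65 with a 95% interval of -1.60 to 1.27. The fit pools the spread over the 4 groups, so this interval also carries that of the dim Sertoli values. Crabp1 was the most tightly bounded of the genes near 0, with an interval of -0.40 to 0.39, and Aldh1a2 followed at -0.13 ± 0.19 (-0.56 to 0.30). Rara had 0.26 ± 0.15 on its brighter probe (adjusted p = 0.883) and 0.38 on the other. Crabp2 had 0.23 ± 0.35, Cyp26b1 0.13 ± 0.46, Rarg 0.08 ± 0.30 and Rbp4 -0.15 ± 0.26. A p that misses the threshold does not show that the genotypes were alike, and these intervals leave room for changes of the widths given.

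In Sertoli fractions 0 of 9 members were called between knockout and control mice, beside 0% of all genes. In limma 2 of 9 had an unadjusted p under 0.05, beside 3.02%. They were the members not well above background on every Sertoli array. Stra8 averaged -6.71 ± 1.49 in knockout and -8.31 ± 0.77 in control Sertoli fractions (SD, n = 3 each), a fitted difference of 1.61 ± 0.65 (limma adjusted p = 1.0). No control array and only mouse 72 among the knockouts was well above background, so no size is given for this difference beyond the fitted value. That value was 0.80 without that mouse, and it turned to -1.26 with normexp background correction. The mean level of the 9 spermatogonial markers other than Stra8 was -3.02, -3.14 and -2.66 in knockout mice 120, 86 and 72, against -3.0, -3.33 and -2.66 in control mice 99, 73 and 74, so mouse 72 was highest among the knockouts and level with control mouse 74. Elongating spermatid markers had lower values in knockout Sertoli fractions for 9 of 9 genes (median -1.26, none called), with means of -5.13, -5.17 and -5.01 in knockout mice, against -4.69, -4.27 and -2.73 in control mice. Peritubular myoid markers were lower in value for 6 of 6 (median -0.47, none called). The part of these cells in the values of the members was not tested. Crabp1 averaged -6.73 ± 0.27 in knockout and -6.33 ± 0.09 in control mice, a difference of -0.40 ± 0.18 (unadjusted p = 0.0479, adjusted p = 1.0). It was the only member whose groups did not overlap, beside 6.67% of all genes, but the probe was well above background on 1 of 3 knockout and 2 of 3 control arrays. The value was -0.11 with quantile normalisation or the deposited table and -1.58 with normexp, and in no alternative was it past the threshold.

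The 7 remaining members had Sertoli differences (knockout minus control) between -0.53 and 0.36. The widest were Cyp26b1 at -0.53 ± 0.46, with knockout values that enclosed those of the controls, and Crabp2 at 0.36 ± 0.35. The synthesis enzymes were close to 0, with Aldh1a1 at -0.11 ± 0.22 (95% interval -0.60 to 0.38) and Aldh1a2 at 0.07 ± 0.19 (-0.36 to 0.50). Rara had -0.02 ± 0.15, Rarg -0.16 ± 0.30 and Rbp4 -0.29 ± 0.26. The members' median was -0.11, beside -0.10 over all genes. The direction of Aldh1a1 and Rara flips with quantile normalisation (0.15 and 0.04). Whether the knockout effect differed between fractions was tested as an interaction, in which 0 of 9 members passed, beside 0.00799% of all genes (limma, and 4.58% at an unadjusted p under 0.05). The smallest p was that of Aldh1a1, at -0.86 ± 0.31 (Sertoli minus germ effect, unadjusted p = 0.0199, adjusted p = 0.951). Stra8 had a fitted value of 1.77 ± 0.92 (adjusted p = 0.999), which rests on the same dim Sertoli arrays and turned to -1.01 with normexp.

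**Figure D4:**
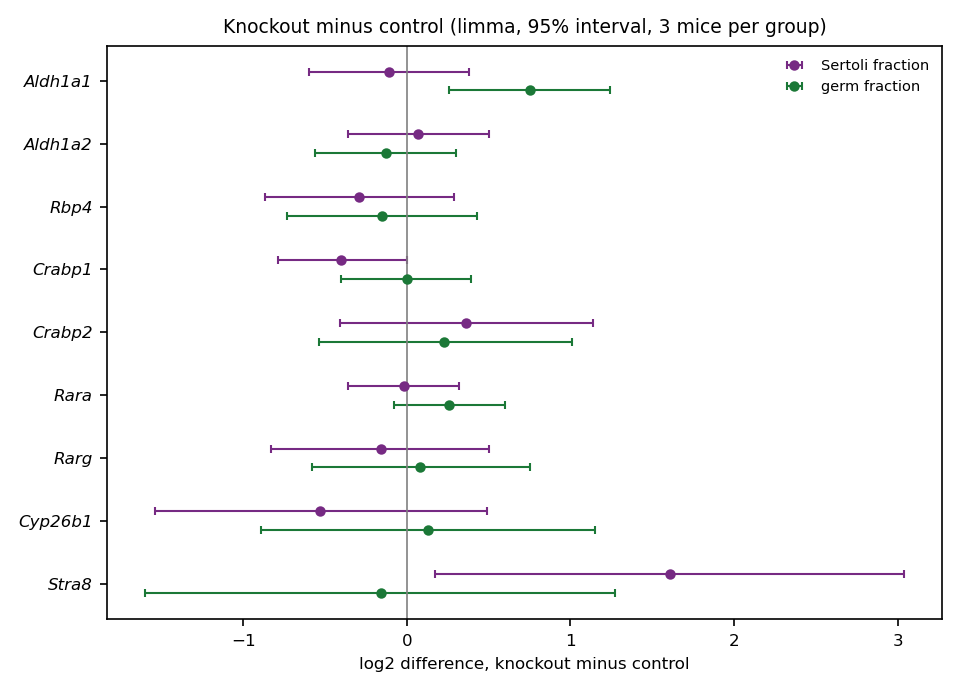
Log2 difference of knockout minus control mice for each of the 9 genes, with 95% intervals from limma, in the Sertoli fraction and in the germ fraction (3 mice per group). Most intervals span 0; those of Aldh1a1 in germ fractions and of Stra8 and Crabp1 in Sertoli fractions do not, and none of these passed after adjustment over all genes.

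Another 63 genes, called pathway genes here, were read from the same fit, and 55 of them were tested. Besides genes of retinoid handling they include coregulators and 15 genes of meiotic entry and spermatogonial differentiation. Between control fractions 25 were called higher in the Sertoli fraction and 20 lower, and between knockout fractions 24 were called higher and 20 lower. The medians were 0.76 in knockout and 0.80 in control mice. Over all genes 75% and 76.3% were called and the medians were 0.09 and 0.21, so the share of pathway genes called is near the background. By direction, 37.9% of all genes were called higher and 37.1% lower in knockout mice, and 39.8% and 36.5% in control mice. The counts per list below are of called genes and stand beside these shares. Among 16 receptors, shuttles and coregulators, 12 were called higher in the Sertoli fraction in each genotype. In control mice these included Tgm2, a transglutaminase induced by retinoic acid (5.16), Fabp5, which carries retinoic acid to nuclear receptors (4.78), and the third retinoic acid receptor, Rarb. Rarb averaged -2.18 ± 0.60 in knockout Sertoli fractions and -7.37 ± 1.64 in knockout germ fractions, 2 of 3 of which measured it (SD, n = 3 each). In control Sertoli fractions it averaged -3.16 ± 0.32, with no control germ array well above background on the probe used. Another Rarb probe did give signal well above background among the control germ arrays, so Rarb cannot be called absent there. Rxra, a receptor partner, was lower in control mice (-3.13). Among 17 oxidising and reducing enzymes 8 were called higher and 5 lower in control mice. The retinaldehyde reductase Dhrs3 (5.66), the alcohol dehydrogenase Adh1 (5.23) and the third retinaldehyde dehydrogenase Aldh1a3 (4.47) were higher, and the alcohol dehydrogenase Adh4 (-7.13) and the retinol dehydrogenase Rdh11 (-3.36) were lower. Bco1, which cleaves carotene to retinaldehyde, was 179-fold lower in knockout and 204-fold lower in control Sertoli fractions, with dim values raised as for Stra8. All 3 dehydrogenases of the Aldh1a1, Aldh1a2 and Aldh1a3 set were therefore higher in the Sertoli fraction.

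Among 8 tested transport and storage genes 2 were called higher and 5 lower in the Sertoli fraction in each genotype. Over all genes 37.9% to 39.8% were called higher and 36.5% to 37.1% lower. The folds of the next 4 genes were taken with dim values raised as for Stra8, and are likewise not strict lower bounds. Lrp2, an endocytic receptor that takes up retinol carriers, was 10.6-fold higher in knockout Sertoli fractions. Rbp7, a retinol binding protein, was 25.7-fold lower in control Sertoli fractions, and Lrat, which esterifies retinol for storage, 9.95-fold lower. Neither was well above background on any control Sertoli array. Cyp26a1, the relative of Cyp26b1 and the only tested gene of the breakdown list, was 14.9-fold lower in knockout and 11.8-fold lower in control Sertoli fractions. Of 13 tested genes of meiotic entry and spermatogonial differentiation, 3 were called higher and 8 lower in control mice. The germ cell genes Sycp3 (-9.43), Sohlh1 (-6.41) and Rec8 (-5.39), which serve the meiotic chromosome axis, spermatogonial differentiation and meiotic cohesion, went the way of Stra8. Of these, Sycp3 was measured on 2 and Sohlh1 on 1 of 3 control Sertoli arrays. Ccnd2 (7.10), Bmp4 (7.0) and Kitl (4.38, measured on 2 of 3 control germ arrays) went the other way, while Kit, the receptor of Kitl, had -0.47 in knockout mice (adjusted p = 0.251) and -0.88 in control mice (adjusted p = 0.0412).

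Between genotypes 0 of these 55 genes were called in either fraction. In germ fractions 35 had higher and 20 lower values in knockout mice, with a median of 0.23 beside -0.04 over all genes. Among the 3 with the smallest p were Tgm2 at 1.18 ± 0.23 (limma adjusted p = 0.0784) and Fabp5 at 1.24 ± 0.31 (adjusted p = 0.189), both of which, like Aldh1a1, are genes higher in the Sertoli fraction. In Sertoli fractions 26 had higher and 29 lower values, with a median of -0.02 beside -0.10 over all genes. The 3 with the smallest p there were Rlbp1 (not well above background on any Sertoli array), Nrip1 at 0.46 and Kit at 0.66 (limma adjusted p = 1.0 each).

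**Figure D5:**
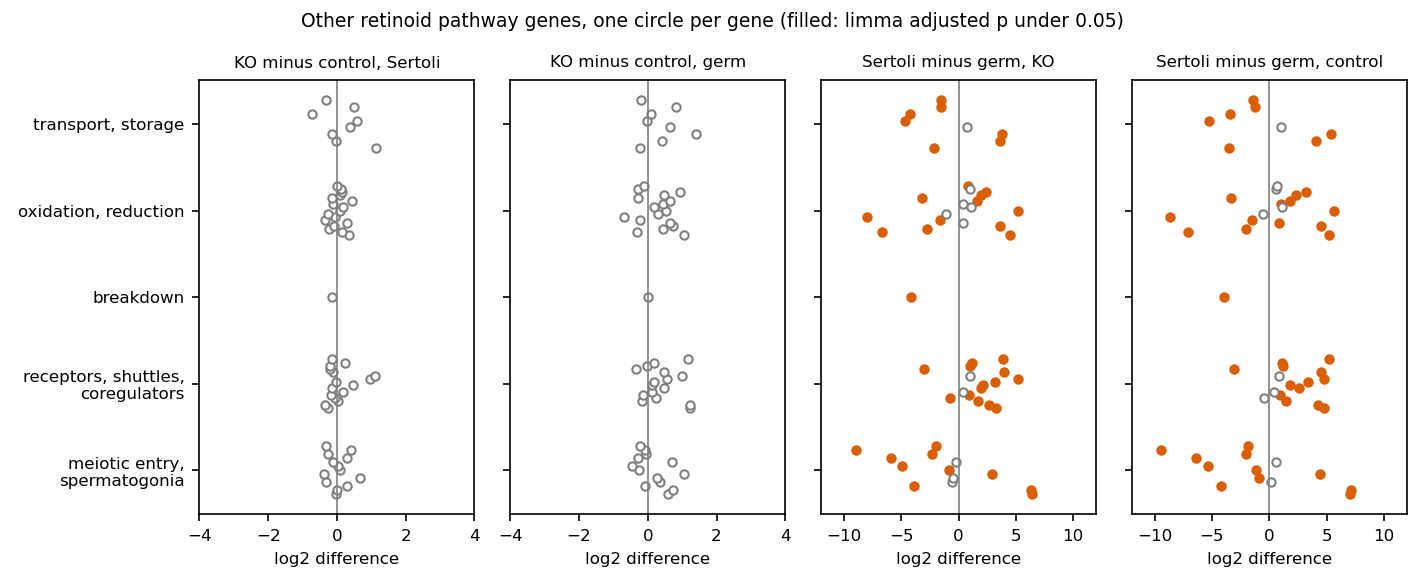
Log2 differences of the 55 other retinoid pathway genes, 1 circle per gene by functional list, for knockout minus control in Sertoli and in germ fractions and for Sertoli minus germ in knockout and in control mice; filled circles passed a limma adjusted p of 0.05. No circle is filled in the genotype panels, and most are filled in the fraction panels, on both sides of 0.

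Across the 12 arrays the members followed genes with the same split between fractions. The genes most like each member by Pearson correlation over the 12 arrays were Sgk2, Ccdc83 and Ccdc70 for Stra8 (0.995 to 0.996) and Pik3cd, Fndc11 and Gm6455 for Crabp1 (0.998 to 0.999). For the members higher in the Sertoli fraction they were Bok, Agap3 and Txn1 for Aldh1a1 (0.997 to 0.998), Uba1, Tshz3 and Vgll3 for Rarg (0.998), Eci2, Sfxn2 and Tnfrsf1a for Rara (0.997), Ppp1r9b, Tmem134 and Npr2 for Crabp2 (0.991 to 0.993) and Klra2, Cbr1 and Zfp534 for Aldh1a2 (0.969 to 0.975). Rbp4 was followed less closely, by P3h2, Dtymk and Rasl2-9 (0.967 to 0.972), and Cyp26b1 least, by Cisd1, Ncbp2 and Rassf7 (0.88 to 0.896). Among the members, Aldh1a1 and Rara had a correlation of 0.99, and Stra8 and Rarg one of -0.98. All these points share the 6 mice and above all the difference between fractions, so the values describe that split and no more.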

How the data were processed

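The authors hybridised total RNA of 12 samples, labelled with Cy3, to one-colour Agilent arrays and deposited scanner intensity values made with Feature Extraction 10.7.3.1, per the file headers. They also deposited a log2 value table, for which limma is named per the submitters' processing notes; its columns each have a median of 8.29 and their scaling is otherwise not given in the sources used here. From the deposited intensity (background-subtracted processed signal) control spots and outlier flags were left out, log2 was taken, each array's 75th percentile subtracted and spots of a probe averaged. No spot was saturated. Probes well above background on all 3 arrays of a group were kept (30538 of 39429), with the brightest probe per gene; 26055 probes had a RefSeq symbol by accession, and the rest keep the accession as gene. limma 3.58.1 (R 4.3.3) fitted 4 group means over the 12 arrays, and calls needed a Benjamini-Hochberg adjusted p of 0.05. Code was tested on simulated data.

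Each mouse is 1 replicate per group, and nothing says that fractions were prepared more than once, so p-values measure the spread between mice. The fractions of a mouse share an animal: their deviations from the group means correlated at 0.204 (mouse 72), -0.115 (73), 0.463 (74), 0.283 (86), -0.161 (99) and 0.257 (120). The members and gene lists were chosen with earlier results of these data known. All members are named; of other pathway genes those past the threshold, largest first within a list, or else the 3 with the smallest p; and the 3 genes most like each member. A pathway gene that this rule would name is not reported here. Alternatives were quantile normalisation, normexp with offset 50 (on the median signal, since the mean signal column is not among those used here), the deposited table, no filter, all probes, slide or mouse as a block, and left-out mice. The number of arrays limits the precision.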

Additional observations from a re-analysis of the deposited data

How the results depend on the processing

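The members called between genotypes stayed at 0 in each fraction and in the interaction under every alternative run, and between fractions 8 or 9 of 9 were called in knockout and 7 or 8 in control mice. With the mouse as a replicate block, the members called were 9 between knockout fractions and 8 between control fractions, and 0 between genotypes; no call of a member changed under this block. Counts over all genes moved more; apart from fewer arrays the cause was not tested. Genes called between germ fractions were 55 and became 3 with normexp, 28 with no filter on dim probes, 1 with the 8-month mice alone, 1 without both controls titled het (which leaves 1 control mouse), and 3 to 130 without 1 mouse. Between Sertoli fractions 0 became 1 with the deposited table, 5 without the controls titled het, and 0 to 5 without 1 mouse (756 at an unadjusted p under 0.05). In the interaction 2 became 1 with quantile normalisation or the deposited table, 0 with normexp, the 8-month mice or without the controls titled het, and 0 to 3 without 1 mouse. Without 1 mouse 16937 to 19474 genes were called between knockout fractions and 17680 to 18864 between control fractions.

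None of the values that changed sign was past the threshold. In germ fractions, the 8-month mice gave Stra8 0.32, Rarg -0.16, Crabp2 -0.33, Rbp4 0.03 and Cyp26b1 -0.03, and leaving out the controls titled het gave Crabp1 0.05. Without 1 mouse, Rarg ranged from -0.09 to 0.35, Crabp1 from -0.07 to 0.09, Stra8 from -0.37 to 0.08, Crabp2 from -0.12 to 0.60 and Cyp26b1 from -0.08 to 0.37. In Sertoli fractions, quantile normalisation and the deposited table gave Rara 0.04 and Aldh1a1 0.15, and normexp gave Stra8 -1.26, Rara 0.13 and Aldh1a1 0.14. Without 1 mouse, Aldh1a2 ranged from -0.04 to 0.25, Rarg from -0.33 to 0.04 and Rara from -0.05 to 0.01. In the interaction, quantile normalisation and the deposited table gave Crabp1 0.01, normexp Stra8 -1.01, and leaving out the controls titled het Crabp2 -0.24 and Rbp4 0.15; without 1 mouse, Rarg ranged from -0.52 to 0.06, Crabp2 from -0.25 to 0.44 and Rbp4 from -0.33 to 0.13. The 6 mice, slides shared by 1 mouse of each genotype, and dim Sertoli signals for Stra8 and Crabp1 limit what the arrays can resolve.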
